A study of Homo sapiens with 4 samples.

Results

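The cytosolic ribosomal protein genes encode the proteins of the ribosome that works in the cytoplasm, and their promoters were followed here through MORC2 overexpression. The members were the promoters of protein-coding genes whose symbol begins with RPL or RPS and a digit, plus RPLP0, RPLP1, RPLP2 and RPSA, without the S6 kinases. This gave 88 of the 28775 promoters of the count table. Of these, 46 encode large-subunit proteins, 31 encode small-subunit proteins and 10 are paralogs, which are close relatives of another ribosomal protein. The remaining member, RPS19BP1, met the rule by its symbol but encodes a binding partner of RPS19 and not a ribosomal protein. Chromatin accessibility was measured by ATAC-seq, in which the transposase Tn5 cuts open DNA and joins sequencing adapters to it. All libraries came from HEK293T, an established line derived from human embryonic kidney that expresses the large T antigen of SV40, and its own wild-type MORC2 gene was present in both groups. The control group (n = 2) received the transfection reagent lipofectamine, with no statement on an empty plasmid. The overexpression group (n = 2) was transfected with MORC2, carried as a fusion to a green fluorescent protein, and the share of cells that took up the plasmid is not given in the sources used here. The labels number the replicates without saying whether they came from separate cultures, and the study calls its ATAC-seq replicates biological only beside another comparison. P-values of the promoter tests measure the spread between these libraries, which may in part be technical. That spread was taken largely over all promoters and not from each promoter's own replicates.

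Each ribosome is built from a small subunit, which reads the messenger RNA, and a large subunit, which joins amino acids. Because every subunit needs its proteins in matched amounts, ribosomal protein genes are expressed together and at high levels in dividing cells. Their messenger RNAs typically begin with a C followed by an unbroken run of C and T bases, the 5′ terminal oligopyrimidine (TOP) tract, through which the mTOR pathway and the protein LARP1 control their translation. MORC2 is an ATPase that binds and compacts DNA and works with the HUSH silencing complex, which prompts the question of whether raising its level changes accessibility at promoters such as these.

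The promoter sequences of the members to which the results turn are shown first, from RefSeq on GRCh38.p14, written 5′ to 3′ along the gene's own strand. Capitals mark the unbroken run of C and T that starts at the annotated transcription start. RPS14 and RPL26 were the only members past the test, and for them 250 bases before and 30 bases after the start are given.
RPS14, chr5:150449710-150449989, minus strand: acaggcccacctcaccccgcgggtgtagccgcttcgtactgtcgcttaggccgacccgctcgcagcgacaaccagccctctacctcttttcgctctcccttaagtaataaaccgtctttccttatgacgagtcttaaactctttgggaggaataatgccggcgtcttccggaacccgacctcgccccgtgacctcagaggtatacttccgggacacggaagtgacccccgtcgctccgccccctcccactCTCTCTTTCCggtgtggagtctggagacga
RPL26, chr17:8383164-8383443, minus strand: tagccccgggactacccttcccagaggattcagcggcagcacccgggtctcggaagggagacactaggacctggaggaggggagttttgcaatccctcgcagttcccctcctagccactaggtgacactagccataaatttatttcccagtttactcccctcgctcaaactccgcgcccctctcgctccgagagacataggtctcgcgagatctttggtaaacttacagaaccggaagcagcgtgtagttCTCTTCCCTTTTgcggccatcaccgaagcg
RPS14 and RPL26 both started with a C, in runs of 10 and 12 pyrimidines. Of the motifs searched, RPS14 held the ETS/GABP letters CCGGAAG on the opposite strand at positions -86 and -46 from the start, and the SP1 letters GGGCGG on the opposite strand at position -15. RPL26 held CCGGAAG on its own strand at position -19 and no match to GGGCGG. For the members below, 30 bases before the start and 30 from it are shown. The first set has a TOP start and covers the stalk proteins RPLP0, RPLP1 and RPLP2, the disease gene RPS19, and RPS13, the member with the next smallest p.
RPS13, chr11:17077638-17077697, minus strand: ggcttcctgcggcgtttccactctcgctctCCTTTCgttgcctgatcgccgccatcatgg
RPS19, chr19:41860225-41860284, plus strand: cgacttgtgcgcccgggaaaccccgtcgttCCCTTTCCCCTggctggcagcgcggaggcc
RPLP0, chr12:120201082-120201141, minus strand: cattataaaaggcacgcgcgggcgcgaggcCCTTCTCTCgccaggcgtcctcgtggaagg
RPLP1, chr15:69452788-69452847, plus strand: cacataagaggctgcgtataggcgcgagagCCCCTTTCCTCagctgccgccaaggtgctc
RPLP2, chr11:809937-809996, plus strand: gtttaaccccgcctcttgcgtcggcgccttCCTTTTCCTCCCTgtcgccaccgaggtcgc
The second set shows members whose first listed start has no TOP tract, including RPL4, which had the highest fold change, and RPL15.
RPL4, chr15:66504826-66504885, minus strand: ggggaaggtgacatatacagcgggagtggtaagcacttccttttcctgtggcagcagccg
RPL15, chr3:23916515-23916574, plus strand: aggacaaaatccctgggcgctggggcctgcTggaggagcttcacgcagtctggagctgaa
RPL11, first listed start, chr1:23691749-23691808, plus strand: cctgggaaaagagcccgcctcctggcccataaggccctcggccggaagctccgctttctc
RPL11, second listed start, chr1:23691776-23691835, plus strand: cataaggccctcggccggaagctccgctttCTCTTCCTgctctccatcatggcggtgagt
RPL11 shows how the annotation decides this class, since its first listed start had no pyrimidine run and its second, further downstream, had a run of 8. The third set sets paralogs beside their relatives, for RPL36A with RPL36AL and, with RPL26 above, for RPL26L1.
RPL36A, chrX:101390981-101391040, plus strand: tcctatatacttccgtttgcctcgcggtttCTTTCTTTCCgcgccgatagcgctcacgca
RPL36AL, chr14:49620597-49620656, minus strand: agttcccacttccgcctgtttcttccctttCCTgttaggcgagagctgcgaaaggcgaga
RPL26L1, chr5:172958699-172958758, plus strand: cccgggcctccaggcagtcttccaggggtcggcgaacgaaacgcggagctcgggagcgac
RPL36A had a run of 10 pyrimidines and RPL36AL a run of 3, whereas RPL26L1 started without a pyrimidine.

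Sequences were found for 70 of the 88 members and for 19554 genes of the count table. The start base was a C in 49 of the 70 members and in 12.6% of all genes with a sequence. A C start followed by pyrimidines to a run of at least 5 was found in 44 members (62.9%), against 4.34% of all genes. Counting any listed start, since 11 members had more than 1, raised this to 48 members (68.6%) against 5.74%. The median run from the start was 6.5 bases in the members and 0 in all genes. These shares are descriptions of the annotation and not measurements of where transcription began in these cells.

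**Figure D1:**
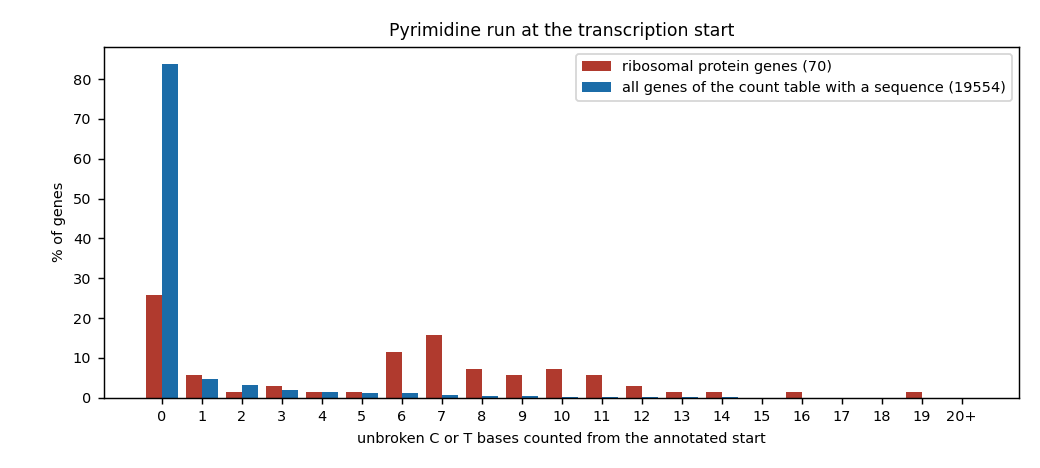
Share of genes, in percent, by the number of unbroken C or T bases counted from the first annotated transcription start, for 70 ribosomal protein genes (red) and the 19554 genes of the count table with a sequence (blue). Most genes have no such run, whereas the ribosomal protein genes have a median of 6.5 bases.

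Motifs were searched on both strands of the window from 250 bases before to 50 bases after the start. CCGGAAG, the core bound by ETS factors such as GABP, was in 32.9% of the members and 13.0% of all promoters. AAGATGGCG, the YY1 motif, was in 8.57% of the members and 2.39% of all. For the SP1 motif GGGCGG the shares were 52.9% and 53.6%, and for the TATA box TATAAA both were 10.0%. CCAAT, bound by NFY, was found in 32.9% and 36.2%, and the E-box CACGTG in 5.71% and 8.34%. The NRF1 motif GCGCATGCG and the cyclic AMP response element TGACGTCA were rarer, in 1.43% and 4.29% of the members against 2.57% and 2.41% of all. GCGCATGCG and the other motifs can overlap each other, and a match is no evidence that the factor was bound.

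Total counts per library ranged from 3734519 to 10255182, and mitochondrial promoters took 51.9% and 55.6% of them under control conditions and 74.7% and 73.8% after overexpression. Nuclear promoters were left with 979895 to 4928862 counts. At the median tested member there were 270 (replicate 1) and 194 (replicate 2) counts in control, against 94 and 51 after overexpression, so that the overexpression values were the less precise. The 9 promoters listed for HEK293T identity were all tested, at a median control percentile of 38.4 among tested promoters, with PAX8 lowest at 13.1. Of 10 listed for other cell types, PTPRC, CD3E and ALB were not retained and the rest lay at percentiles of 6.43 to 55.5 with a median of 25.2, so that the lists overlapped. The MORC2 promoter itself had 257 and 162 control counts and 87 and 42 overexpression counts (log2 fold change -0.14, edgeR adjusted p = 0.694), which does not check the plasmid. The sources used here do not say whether the plasmid carries any of this promoter.

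In the control libraries most ribosomal protein promoters were more accessible than the typical promoter. Levels are CPM, counts set against the library total after TMM scaling (scaled CPM), and they are compared between genes on the assumption that the table counts the study's windows of equal width. The median of the 85 tested members was 19.4 scaled CPM, against 12.1 for all 23407 promoters tested, and the median member stood at the 68.0 percentile. Large-subunit promoters had a median percentile of 69.9, small-subunit promoters 66.2 and the 7 tested paralogs 63.0. The members not retained by the filter on low counts were RPL10L, a paralog known from the testis with 8, 7, 1 and 4 counts, and the Y-linked RPS4Y1 and RPS4Y2.

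The most accessible member was RPL7, a large-subunit protein, with 47.0 (replicate 1) and 48.3 (replicate 2) scaled CPM in control, against 40.6 and 38.8 after overexpression. RPL10, which joins the large subunit late in its assembly, had 38.7 and 33.8 in control, and RPL15 had 37.9 and 34.0. RPL7 thus stood above both other promoters in each control library, whereas RPL10 and RPL15 did not differ beyond their spread, at 36.2 ± 3.47 and 35.9 ± 2.78 (SD, n = 2). The lowest members over all libraries were RPL23, which is known to bind MDM2, RPL17, whose protein lines the exit tunnel, and RPL19, all of the large subunit. RPL23 had 5.65 and 5.59 scaled CPM in control and 6.92 and 7.22 in overexpression. RPL17 had 6.93 and 5.59 in control and 7.30 and 6.87 in overexpression, and RPL19 had 6.86 and 5.69 in control and 5.05 and 6.53 in overexpression. In the control libraries RPL17 overlapped both other promoters, and the lower RPL19 value was barely above the higher RPL23 value, so their order was not resolved. Control means thus ranged from 5.62 (RPL23) to 47.7 (RPL7) among genes whose products are needed in matched amounts.

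**Figure D2:**
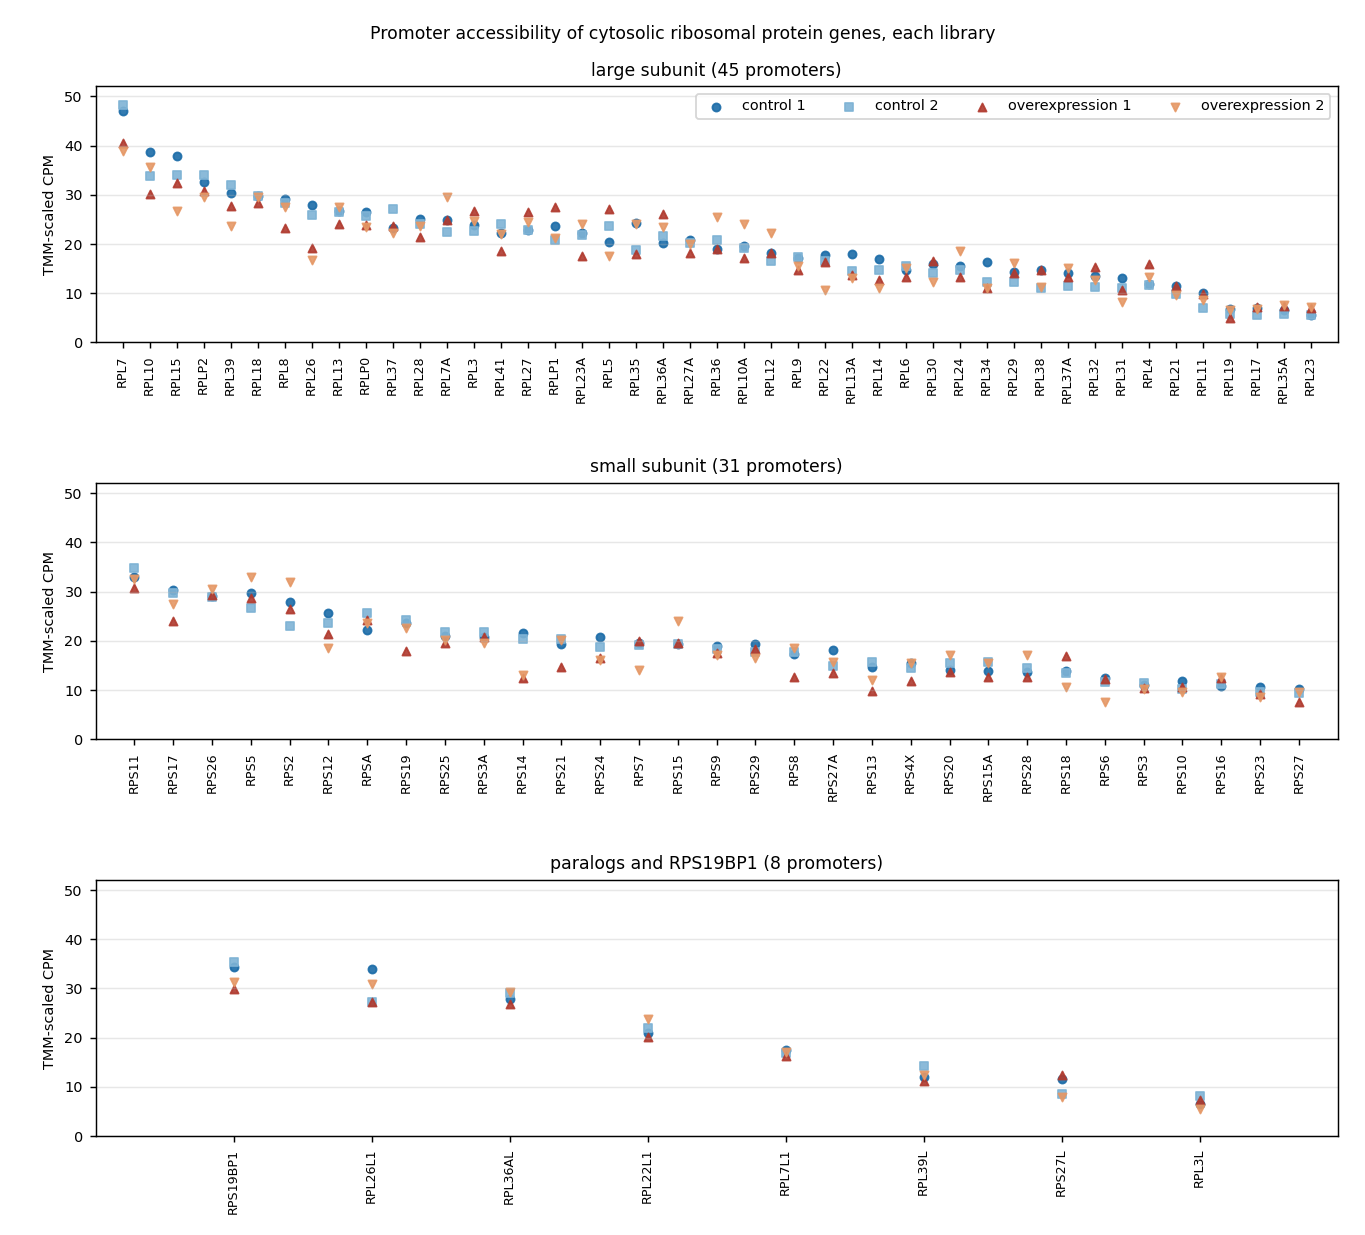
Scaled CPM of 84 of the 85 tested ribosomal protein promoters in each of the 4 libraries, ordered by control mean within the large subunit, the small subunit, and the paralogs with RPS19BP1. Blue points are control and red or orange points overexpression replicates; RPL7 is the highest, and for most promoters the 4 points lie close together relative to the range between genes.

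After MORC2 overexpression 2 of the 85 tested members fell (2.35%) and none rose, where 1.31% of all promoters fell and 1.16% rose. Both that fell encode proteins of the ribosome itself, as do 77 of the 88 members, paralogs not counted. RPS14 is a small-subunit protein whose loss of 1 gene copy is known from the anaemia of the 5q- syndrome. Its promoter held 301 (replicate 1) and 211 (replicate 2) control counts, against 67 and 38 after overexpression, which is 21.5, 20.4, 12.5 and 13.1 scaled CPM in that order. The groups did not overlap, and the 2 replicates of each lay close together, at 20.9 ± 0.823 in control and 12.8 ± 0.370 in overexpression (SD, n = 2). RPS14 fell by 0.72 on the log2 scale (SE 0.158, edgeR adjusted p = 0.00159). The fit took its spread largely from all promoters, so this p rests little on how close the RPS14 replicates lay. RPL5, at 22.3 ± 6.79 in overexpression, had an SE of 0.135, and RPLP0, at 23.7 ± 0.410, had 0.132.

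RPL26 is a large-subunit protein at the exit tunnel that is also known to bind the messenger RNA of p53. Its promoter held 390 and 269 control counts, against 103 and 49 after overexpression, or 27.9, 25.9, 19.3 and 16.8 scaled CPM. Again the groups did not overlap, at 18.1 ± 1.72 against 26.9 ± 1.37 (SD, n = 2). RPL26 fell by 0.56 on the log2 scale (SE 0.140, edgeR adjusted p = 0.00988). Leaving out 1 library left its group with a single library, whose spread was taken from the other group, and the log2 fold changes stayed between -0.76 and -0.68 for RPS14 and between -0.69 and -0.49 for RPL26. The calls did not all remain. Without control replicate 1 the adjusted p was 0.0505 for RPS14 and 0.129 for RPL26, and without overexpression replicate 1 it was 0.131 and 0.0914, so that no member passed. Without overexpression replicate 2 RPS14 passed and RPL26 did not (0.173). With the Wald test of DESeq2 neither passed (0.240 and 0.374), at log2 fold changes of -0.72 and -0.56.

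The 2 promoters that fell are 2.35% of the 85 tested members, whereas 1.31% of all tested promoters fell. No member rose, while 1.16% of all promoters did, mitochondrial ones included. DESeq2 also called no member higher, and 2 members were higher at an unadjusted edgeR p under 0.05 (2.35%, against 8.64% of all promoters). At an unadjusted p under 0.05, 10 members were lower (11.8%), against 8.59% of all promoters. The groups lay apart, with each overexpression value below each control value, at 31 members (36.5%), and the other way round at 11 (12.9%), where all promoters gave 24.9% and 24.8%. The log2 fold change was below 0 at 55 members (64.7%) and at 48.7% of all promoters. Its median was -0.10 over the members and 0.0095 over all promoters, and standard errors of single members ran from 0.111 to 0.254. The large subunit had a median of -0.087, with RPL26 its only call among 46, and the small subunit -0.10, with RPS14 its only call among 31. The median stayed below 0 under every scaling tried, from -0.90 with library totals, where all promoters had -0.79 and 84 members fell, to -0.023 with upper quartile scaling, where all promoters had 0.090 and 2 members fell. In bulk libraries, a small loss in all cells and a larger loss in some of them cannot be told apart.

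**Figure D3:**
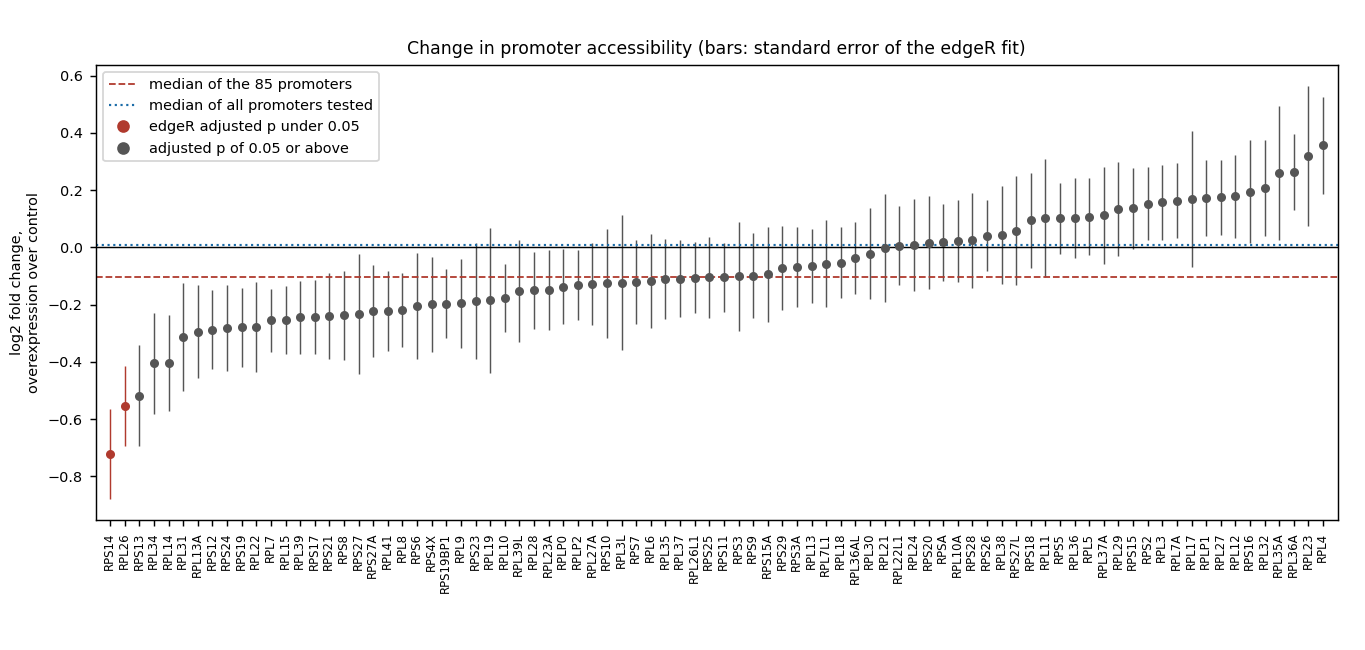
Log2 fold change, overexpression over control, of 84 of the 85 tested ribosomal protein promoters in order of size, with bars of 1 standard error computed from the edgeR F statistic. RPS14 and RPL26 (red) are past the adjusted threshold, and the dashed line marks the median of all 85 members (-0.10) below the dotted line of all promoters tested (0.0095).

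Members were more abundant than most promoters, and fold changes moved with abundance in these libraries. Sorting all tested promoters into quartiles by abundance put 15, 41 and 29 members into the second, the third and the highest, and none into the lowest. Over all promoters the median fold change, on the log2 scale, went from 0.39 in the lowest quartile through 0.13 and -0.054 to -0.13 in the highest. The 70 members (82.4%) of the upper 2 quartiles were therefore set beside the promoters there. Their median was -0.11, against -0.095 for the other promoters of those quartiles. By quartile the members' median was -0.098 in the third, where all promoters had -0.054, and -0.11 in the highest, where all promoters had -0.13. The 2 promoters that fell were 2.86% of the 70 members, against 2.57% of all promoters of the upper 2 quartiles. At an unadjusted p under 0.05, 10 of them were lower (14.3%), against 15.8%. Higher at that level were 2 of the 41 members in the third quartile and none of the 29 in the highest. Among all promoters, 159 of 5851 and 97 of 5852 were higher there, against 1030 in the lowest quartile and 737 in the second. Past the adjusted threshold 14 and 46 promoters rose in the upper 2 quartiles, against 130 and 82 in the lower 2. The highest quartile also holds mitochondrial promoters, of which 37 were tested, and their part in these rises was not counted. Fitted without them, 576 promoters were called and 341 of those fell, where the main fit called 579 and 307 fell. Among the 70 members, groups lay apart downwards at 28 (40.0%) and upwards at 8 (11.4%), against 40.2% and 9.96%. Beside all promoters of the upper 2 quartiles, then, the shares of members were near the background, with no closer matching of abundance. The 15 members of the second quartile had a median of -0.10 where all promoters of their quartile had 0.13. Of these 15, 3 were apart in each direction (20.0% each), against 11.9% of the promoters there downwards and 35.3% upwards. They were not matched in abundance within that quartile, with a control median of 10.1 scaled CPM against 6.67.

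The comparison was also made library by library. The median log2 ratio of the members was -0.10 for overexpression replicate 1 over control replicate 1, and -0.074 for overexpression replicate 2 over that control. Against control replicate 2 the medians were -0.11 and -0.023. Between the control replicates it was -0.043 and between the overexpression replicates 0.056, so that the smallest of the 4 medians between groups was within the size seen between replicates. Other promoters of the upper 2 quartiles gave -0.071 to -0.13 between groups, so that the members lay below them in overexpression replicate 1 and above them in overexpression replicate 2, against either control. The member medians here include the 15 members of the second quartile, so that they were not matched to those promoters in abundance. Single members scattered by an SD of 0.16 between control replicates, 0.28 between overexpression replicates and 0.23 to 0.27 between groups. The order of the members was largely kept, with Pearson's r of log2 values over the 85 members of 0.969 between control replicates, 0.897 between overexpression replicates and 0.906 to 0.928 between groups, a description over genes that share their libraries.

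The members' part of the nuclear promoter counts was 0.483% and 0.463% in control (23792 and 17027 counts) and 0.455% and 0.475% in overexpression (8321 and 4654 counts). The groups overlapped, at 0.473 ± 0.0137% and 0.465 ± 0.0138% (SD, n = 2). The difference of -0.00780 percentage points had an exact two-sided permutation p of 0.667, where 2 against 2 libraries cannot go below 0.333. Over all promoter counts the members took 0.219 ± 0.0186% in control and 0.120 ± 0.00653% in overexpression, beside the rise of the mitochondrial part (exact permutation p = 0.333).

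**Figure D4:**
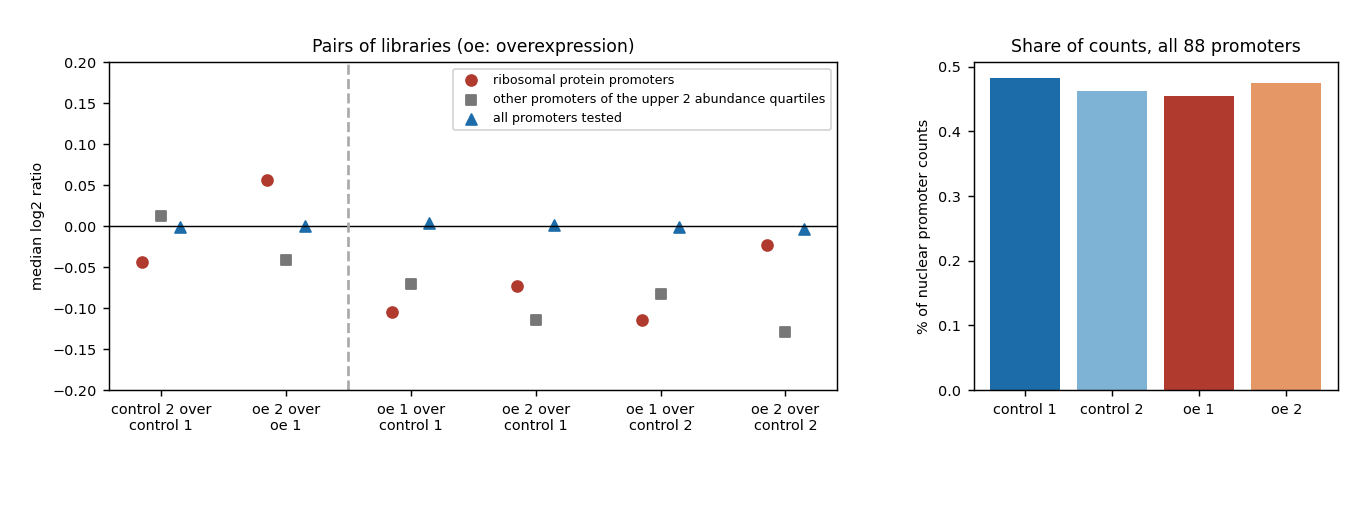
Left, median log2 ratio between pairs of libraries for the ribosomal protein promoters (circles), the other promoters of the upper 2 abundance quartiles (squares) and all promoters tested (triangles), with pairs of replicates left of the dashed line. Right, percent of nuclear promoter counts at the 88 ribosomal protein promoters in each library, between 0.455% and 0.483%.

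The remaining members among the 10 smallest p-values missed the threshold, and values of most of them follow without a call. RPS13, a small-subunit protein, had 14.7 and 15.6 scaled CPM in control and 9.73 and 12.0 in overexpression (log2 fold change -0.52, SE 0.177, edgeR adjusted p = 0.0832). RPL14 had 17.0, 14.8, 12.7 and 11.0 in the same library order (-0.40, adjusted p = 0.174). In all of these the overexpression libraries lay below both controls. RPL34 had 16.4 and 12.2 in control and 11.0 in both overexpression libraries (-0.40, adjusted p = 0.198), and without control replicate 1 its fold change was -0.15. RPL7, the most accessible member, gave -0.25 (adjusted p = 0.196), and RPL15 also gave -0.25 (adjusted p = 0.247). RPS12, of the small subunit, had 25.7, 23.7, 21.3 and 18.6 scaled CPM (-0.29, adjusted p = 0.251). The groups were apart downwards in each of these as well.

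In the other direction the largest fold change was that of RPL4, a large-subunit protein that reaches into the exit tunnel. It had 11.8 and 11.6 scaled CPM in control and 15.9 and 13.4 in overexpression (log2 fold change 0.36, SE 0.169, edgeR adjusted p = 0.245). RPL23 had 79, 58, 37 and 21 counts and a fold change of 0.32 with a larger SE of 0.245 (adjusted p = 0.517). RPL36A had 20.2, 21.7, 26.0 and 23.4 scaled CPM (0.26, adjusted p = 0.287). In all of these the overexpression libraries lay above both controls, and none passed the test. The smallest changes were found at RPL21 (-0.0019, SE 0.189), RPL22L1 (0.0054, SE 0.138) and RPL24 (0.0090, SE 0.160), where the groups overlapped.

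The stalk proteins RPLP0, RPLP1 and RPLP2 form the arm of the large subunit that recruits elongation factors, and their promoters were among the more accessible, with a median percentile of 81.0. RPLP0 had 26.4 and 25.7 scaled CPM in control and 23.9 and 23.4 in overexpression (log2 fold change -0.14, edgeR adjusted p = 0.628). RPLP2 had 32.6, 34.0, 30.9 and 29.5 (-0.13, adjusted p = 0.611), so both were apart downwards by a small amount. RPLP1, which pairs with RPLP2 in the stalk, had 23.6, 20.8, 27.5 and 21.3 with overlapping groups (0.17, adjusted p = 0.520).

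RPL5 and RPL11 form a particle with 5S ribosomal RNA that binds MDM2 when ribosome assembly fails. RPL5 had 20.4 and 23.7 scaled CPM in control and 27.1 and 17.5 in overexpression, the overexpression replicates lying on both sides of the controls (log2 fold change 0.11, edgeR adjusted p = 0.730). RPL11 had 10.1, 7.04, 9.91 and 8.59, with overlapping groups (0.10, adjusted p = 0.842). RPS6, the substrate of the S6 kinases, had 12.4, 11.7, 12.2 and 7.56, where only overexpression replicate 2 lay below the controls (-0.20, adjusted p = 0.601). RPSA, also known as the laminin receptor, had 22.2, 25.8, 24.3 and 23.7 (0.017, adjusted p = 0.963).

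RPS19 is the gene most often mutated in Diamond-Blackfan anaemia, an inherited failure of red cell production. Its promoter had 23.7 and 24.2 scaled CPM in control and 18.0 and 22.7 in overexpression, apart downwards (log2 fold change -0.28, edgeR adjusted p = 0.277). Of 19 members in a list of genes for this anaemia 1 fell, RPL26, and none rose, where 1.31% of all promoters fell and 1.16% rose. The list's median was -0.11, beside 0.0095 for all promoters and -0.095 for other promoters of the upper 2 abundance quartiles. Its median control percentile was 68.9. Without overexpression replicate 1 the fold change of RPS19 was -0.084.

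The 7 tested paralogs include no call, where 1.31% of all promoters fell and 1.16% rose, and none of them had groups that lay apart, where 24.9% of all promoters did downwards and 24.8% upwards. RPL36AL had 27.9 and 29.0 scaled CPM in control and 26.7 and 29.2 in overexpression (log2 fold change -0.038), while RPL36A gave 0.26. RPL26L1 had 33.9, 27.2, 27.3 and 30.9 (-0.11), while RPL26 fell by 0.56. The difference between a paralog and its relative was not tested. RPL22L1 had 20.9, 22.0, 20.2 and 23.7 and RPL7L1 17.6, 16.9, 16.3 and 17.2. RPS27L, a target of p53, had 11.7, 8.58, 12.3 and 7.90, so that its first replicate was the higher in either group. RPL39L, known from the testis, had 11.9, 14.2, 11.2 and 12.4 (-0.15), and RPL3L, the form of heart and skeletal muscle, had 6.58, 8.10, 7.30 and 5.50 (-0.12).

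Set beside the sequences above, the 43 tested members with a TOP start had a median log2 fold change of -0.13 (from -0.72 to 0.26) and the 24 with another start -0.047 (from -0.25 to 0.36). Both members that fell belong to the TOP class, which holds 43 of these 67 members. At the other end RPL4 does not belong to it and RPL36A does. The control median was 19.8 scaled CPM for TOP starts and 17.9 for other starts. The 23 members with CCGGAAG had a median of -0.13 and the 44 without it -0.069. These medians are descriptions, and their differences were not tested.

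A window around a start can also hold the start of a neighbouring gene, and then the same fragments count for both. By RefSeq starts, 22 of the 70 members with a sequence had a neighbour whose window overlapped, and 19 had a neighbour with counts within 10% of their own in every library. RPL36A and BTK, a kinase of blood cells, had 282, 225, 139 and 68 counts against 279, 224, 134 and 65. RPL4 had 165, 120, 85 and 39 counts and ZWILCH, a kinetochore gene, 162, 114, 86 and 40. RPL12 and LRSAM1 likewise had 253, 171, 97 and 65 counts against 252, 170, 97 and 63. Values of such members cannot be given to 1 gene of the pair. Among members named above this also held for RPL17 with its readthrough transcript, RPL34, RPL36AL with MGAT2, RPL26L1 and RPLP0. NKIRAS1, whose window overlaps that of RPL15, had 639, 458, 176 and 91 counts and fell by 0.48 on the log2 scale (edgeR adjusted p = 0.00682), while RPL15, with 530, 352, 173 and 78 counts, gave -0.25. No such neighbour was listed for RPS14 or RPL26, but only the 19554 genes with a sequence, of 28775 promoters counted, could be listed.

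Ribosomal proteins outside the naming rule were read beside the members, without a call. FAU, which is made as a fusion that carries RPS30, had 18.2, 17.8, 17.0 and 19.9 scaled CPM (log2 fold change 0.0018, edgeR adjusted p = 0.997). RACK1, a scaffold protein on the small subunit, had 32.0, 23.7, 28.8 and 27.1 (-0.0027, adjusted p = 0.993).

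Other genes of ribosome synthesis and translation were read from lists in the same fit. Among 34 tested translation factors 1 fell and none rose, with a median log2 fold change of -0.12. The one that fell was EIF1AX, an initiation factor that helps to select the start codon, with 285, 181, 72 and 36 counts (-0.55, SE 0.159, edgeR adjusted p = 0.0374). Among 49 ribosome assembly factors 1 fell and none rose, with a median of -0.11. NPM1, the nucleolar chaperone, had 715, 456, 169 and 95 counts and fell by 0.58 (SE 0.116, edgeR adjusted p = 0.000236). No call was made among 15 RNA polymerase I genes (median -0.13), 19 genes of RNA polymerase III and 5S transcription (-0.11) or 19 regulators of ribosomal protein synthesis (-0.087). All these counts stand beside 1.31% of all promoters that fell and 1.16% that rose. At an unadjusted p under 0.05, 8 translation factors were lower and 1 higher, and 5 assembly factors, 1 gene of each polymerase list and 6 regulators were lower and none higher. Over all promoters 8.59% were lower at that level and 8.64% higher, and in the upper 2 abundance quartiles 15.8% were lower. Most of those higher lay in the lower 2 quartiles. The medians of these lists lay from -0.13 to -0.087, around the -0.10 of the ribosomal proteins and the -0.095 of other promoters of the upper abundance quartiles. Neither the lists nor the ribosomal proteins were matched to those quartiles in abundance.

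**Figure D5:**
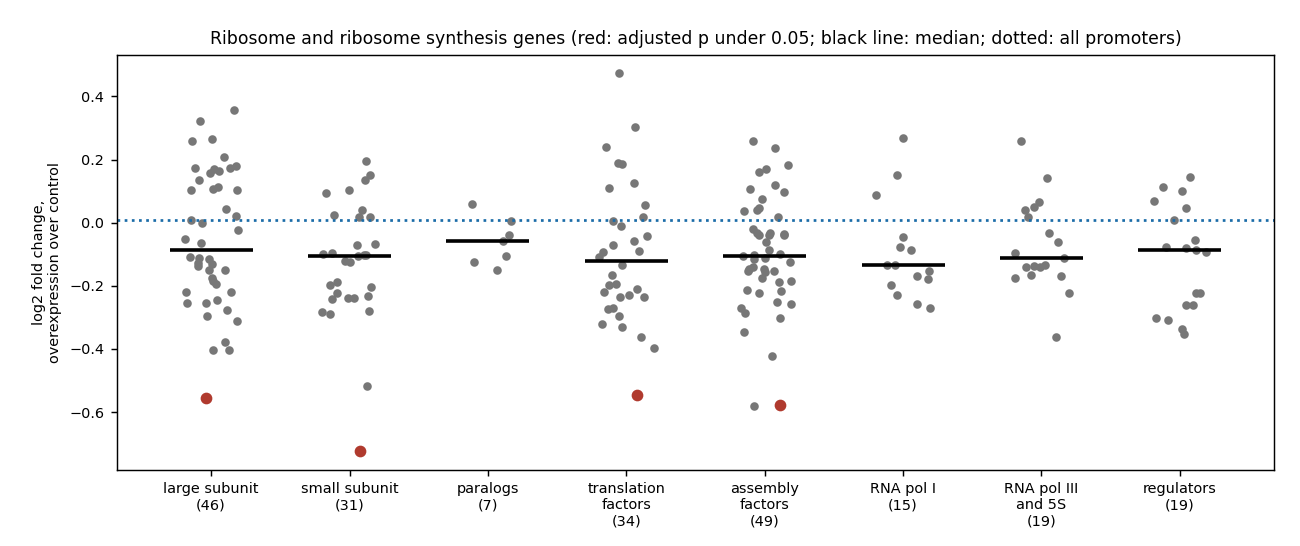
Log2 fold change, overexpression over control, of each tested promoter in the ribosomal protein classes and the lists of translation and ribosome synthesis genes, with black lines at the medians and the dotted line at the median of all promoters. Red points are RPL26, RPS14, EIF1AX and NPM1, the only promoters shown with an edgeR adjusted p under 0.05.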

How the data were processed

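ATAC-seq fragments of 4 HEK293T libraries were analysed. According to the study's methods, the authors trimmed reads, aligned them to the CHM13 assembly with Bowtie2, filtered for proper pairs and mapping quality, removed duplicates with Picard, and defined promoters as windows of 2 kb around transcription starts. The deposited table held raw whole-number counts per promoter, 1 row per Entrez identifier. That it counts these windows is an assumption. Peak lists were not used here, because promoters were not placed on that assembly. Identifiers were matched to RefSeq symbols, which named 28763 of 28775 promoters.

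Promoters were kept by filterByExpr (23407 of 28775), scaled by TMM and tested in edgeR 4.0.16 (R 4.3.3, quasi-likelihood F-test, two-sided, Benjamini-Hochberg adjustment over all promoters, threshold 0.05), with a script tested on simulated data. Library ratios used a pseudocount of 0.5 CPM. Other shares and sequences were computed in Python 3.11.15 with pandas 2.3.3 and scipy 1.17.1. Over the 85 members, counts of replicates differed by a chi-square per degree of freedom of 1.29 (control, p = 0.0395) and 1.23 (overexpression, p = 0.0762). Over 17555 promoters outside the highest abundance quartile, where the mitochondrial ones lie, both pairs differed beyond counting noise (1.16 and 1.14 per degree of freedom, chi-square p = 2.47e-45 and 4.12e-36). This excess was small and cannot tell technical from biological replicates. All libraries were kept as separate replicates. Depth is given as counts, and intervals of precision as standard errors. These were computed as the absolute log2 fold change divided by the square root of the edgeR F statistic.

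The promoters named were members past the threshold or, if under 10, the 10 smallest p; the 3 highest, 3 lowest, 3 least changed and 3 with the largest log2 fold change; RPLP0, RPLP1, RPLP2, RPSA, RPS19, RPL5, RPL11, RPS6; tested paralogs; FAU, RACK1, MORC2; and other listed genes past the threshold. A few promoters that this rule covers are not reported here. Neighbouring genes, with RPL12, were named after their values were seen. The members and all lists were chosen with earlier results of these data known. Alternatives covered scaling, filters, DESeq2 1.42.0, voom of limma 3.58.1, other quasi-likelihood forms, the threshold, a replicate block and leaving out each library.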

Additional observations from a re-analysis of the deposited data

How the results depend on the processing

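The 2 members that fell became 84 when libraries were scaled by all counts, mitochondrial ones included, 1 with a loess correction on abundance (RPS14), 0 with the DESeq2 Wald test, and 0 to 2 when 1 library was left out. RPL26 had an edgeR adjusted p of 0.133 under the loess correction. No setting called a member higher. The members' median log2 fold change of -0.10 was -0.90 with library totals, which moved the median of all promoters to -0.79. It was -0.023 with upper quartile scaling (all promoters 0.090), -0.031 with loess, -0.13 unfiltered, -0.078 where each library had to hold 10 counts, -0.033 where the mean had to reach 50, and -0.12 to -0.064 without 1 library. Its difference from the median of all promoters, -0.11, was -0.024 with loess, -0.035 with the mean filter, -0.058 without overexpression replicate 1 and -0.077 without control replicate 1. All called promoters numbered 579 in the fit reported (307 fell, 272 rose), 16325 with library totals, 54 with loess, 368 and 218 with those filters, 52 with DESeq2, 1171 at a threshold of 0.1, and 101 to 205 without 1 library. Of the calls, 22.1% fell with upper quartile scaling, 21.2% with DESeq2, 40.7% with loess and 99.7% with library totals. The study itself reports only minimal accessibility changes after overexpression of wild-type MORC2. Its methods describe tests on small windows that are then summarized by promoter, so its result is not like for like with these counts. Over all promoter counts the difference in the members' share was -0.0988 percentage points. With library totals these members turned to called falls: RPL11 (-0.69), RPL17 (-0.63), RPL22L1 (-0.78), RPL24 (-0.78), RPL36A (-0.54), RPL4 (-0.44), RPL5 (-0.71), RPLP1 (-0.63), RPS27L (-0.74) and RPSA (-0.78). Outside library totals 36 values of named members changed sign, all uncalled, in 13 of 32 members. The causes were not tested.

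The labels do not say whether same-numbered libraries were paired. Deviations of same-numbered libraries correlated at 0.049 over 15013 promoters and 0.14 over 84 members, which cannot decide it with only 2 pairs. The fit with a replicate block called 483 promoters, and again RPS14 and RPL26 among the members. Depth limits single promoters, since a member had as few as 16 counts in overexpression replicate 2.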
